A study of Homo sapiens with 15 samples.

Results

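The genes described here are 38 genes of G2 and mitosis, taken by symbol from a list of cyclins, mitotic kinases, spindle checkpoint, kinetochore, motor and spindle genes. Each symbol stood once among the 57905 rows of the deposited expression table, so all 38 were found. All 38 also belonged to the 17214 genes tested, which are those with at least 0.5 FPKM (fragments per kilobase of transcript, scaled to library depth) in at least 3 of the 12 libraries used. The study sequenced RNA of SW480, an established human colorectal adenocarcinoma line labelled as intestinal epithelial, in 4 groups of 3 libraries, to study PINT in inflammatory transcription. The group PINT shRNA1+LPS carried a lentiviral short hairpin (shRNA1) directed at the long noncoding RNA PINT, kept as a stable line, and was exposed to LPS (bacterial lipopolysaccharide, 1 µg/ml) for 4 h. PINT shRNA1 carried the same hairpin and received PBS for 4 h. The LPS group was wild-type SW480 given 1 µg/ml LPS for 4 h, and the Control group was wild-type SW480 given PBS for 4 h. No group of the labels used here received a control hairpin, so the hairpin, the lentivirus and the making of a stable line cannot be told apart. The labels do not say that the libraries of a group came from separate cultures, so a p-value here speaks of the variation among libraries, which may be technical.

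Entry into mitosis is driven by the kinase CDK1 bound to a B-type cyclin, and anaphase starts when the anaphase-promoting complex, with CDC20, marks securin and cyclin B for destruction. The spindle checkpoint holds that complex back until every kinetochore is attached to microtubules. Transcripts of these genes build up late in the cell cycle under MYBL2, FOXM1 and the MuvB complex, and are repressed in resting cells by the DREAM complex, which binds a promoter element called the CHR. In RNA from whole cultures, a change in the share of cells in G2 or mitosis and a change in RNA per such cell cannot be told apart.

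The hairpin libraries went against their label. LINC-PINT, the gene the hairpin was made against, had 3.54, 4.00 and 4.08 FPKM in PINT shRNA1+LPS libraries, against 2.40, 2.82 and 1.91 FPKM in LPS libraries. It had 4.55, 5.26 and 5.34 FPKM in PINT shRNA1 libraries, against 2.88, 2.56 and 2.51 FPKM in Control libraries. Both differences were called in limma, with log2 fold changes of 0.61 ± 0.118 (adjusted p = 0.00284) and 0.81 ± 0.118 (adjusted p = 0.000592), so the hairpin names below stand for the labelled libraries and not for less PINT. Sequencing depth relative to the first Control library was 1.3003 to 1.51 in PINT shRNA1+LPS, 0.914 to 1.05 in PINT shRNA1, 0.848 to 0.858 in LPS and 0.809 to 1 in Control libraries. Genes above 0 numbered 30725 to 31961 in the hairpin libraries and 27078 to 28430 in the others. The epithelial markers EPCAM, KRT8, KRT18, KRT19 and CDH1 were all present. Summed, they came to 1530 to 1588 FPKM in PINT shRNA1+LPS and 1424 to 1519 FPKM in PINT shRNA1 libraries, against 2345 to 2389 FPKM in LPS and 2319.7 to 2646 FPKM in Control libraries, and 4 of the 5 were called lower in both hairpin comparisons. No leukocyte, fibroblast or endothelial marker with a row was at 0 in all libraries, and the highest value of any was 1.76, 1.18 and 0.322 FPKM for the 3 lists, with summed leukocyte markers at 2.14 to 2.87 FPKM in hairpin libraries and 1.15 to 1.82 FPKM in the others. The part of these differences in the results below was not tested.

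The 38 genes were abundant in SW480 cells. Their mean level over the 12 libraries ran from 12.6 FPKM for CENPA, the histone variant that marks centromeres, to 169 FPKM for TOP2A, the topoisomerase that untangles sister chromatids. The median of the 38 means was 41.9 FPKM, against 5.59 FPKM for all genes tested, and each of the 38 lay above that median. In Control libraries the highest levels after TOP2A (161 ± 2.68 FPKM, SD, n = 3) were those of TPX2 (123 ± 2.90 FPKM), a spindle assembly factor, securin PTTG1 (103 ± 2.83 FPKM), the ubiquitin-conjugating enzyme UBE2C (101 ± 6.21 FPKM) and ECT2 (96.2 ± 0.937 FPKM), a cytokinesis factor. PTTG1 and UBE2C did not differ beyond their spread. The lowest Control levels after CENPA (11.8 ± 0.152 FPKM) were CDC25C (14.1 ± 0.608 FPKM), BIRC5 (15.9 ± 2.83 FPKM), NUF2 (16.003 ± 0.934 FPKM) and CENPE (16.4 ± 1.01 FPKM). The last 3 overlapped, and BIRC5 also overlapped CDC25C. Summed over the 38 genes, the level was 2008 to 2051 FPKM in PINT shRNA1+LPS libraries and 2032 to 2089.8 FPKM in PINT shRNA1 libraries, against 1831 to 1905 FPKM in LPS and 1909 to 1947 FPKM in Control libraries. With the libraries as deposited, all hairpin libraries were therefore above the others in this sum. The median log2 level of all genes tested was also higher in hairpin libraries. It was 2.62 to 2.65 in PINT shRNA1 against 2.57 to 2.61 in Control libraries. In PINT shRNA1+LPS it was 2.59 to 2.60, against 2.54 in LPS libraries. Whether the sums stay apart with the libraries set to the same median was not tested.

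**Figure D1:**
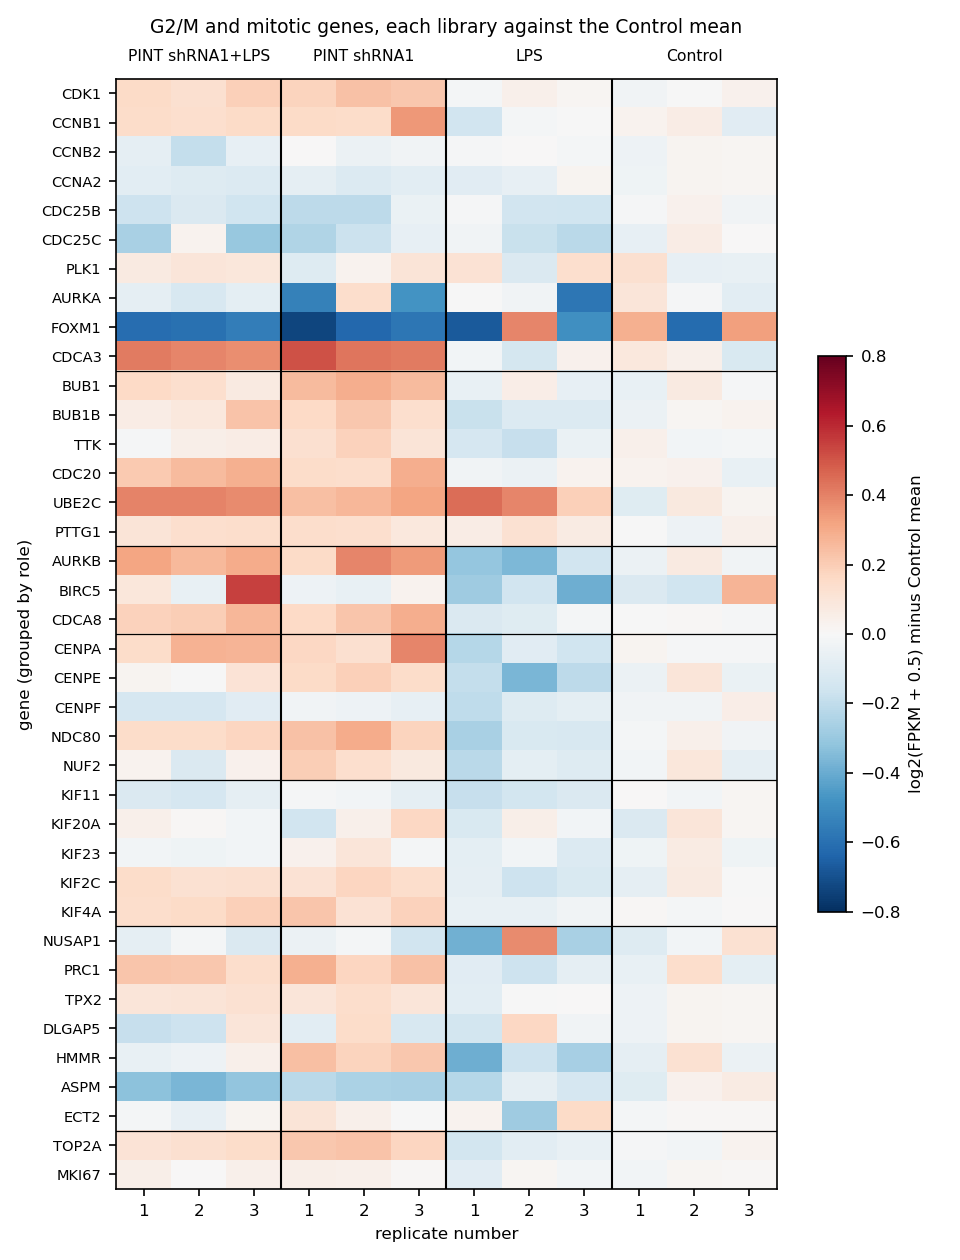
Level of each of the 38 genes (rows, grouped by role) in each of the 12 libraries (columns, by group and replicate number), as log2(FPKM + 0.5) minus the mean of the 3 Control libraries. Red cells are above and blue cells below that mean, CDCA3 and AURKB are red in all 6 hairpin libraries, ASPM is blue in all 6, and FOXM1 splits within the LPS and Control groups.

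PINT shRNA1 cells had 19 of the 38 genes higher and 2 lower than Control cells, at an adjusted p under 0.05 in limma. Over all genes tested in that comparison 27.3% were called, 16.9% higher and 10.3% lower. PINT shRNA1+LPS cells had 19 of the 38 higher and 1 lower than LPS cells, where 29.2% of all genes were called, 17.7% higher and 11.6% lower. The changes were small: the median log2 fold change of the 38 was 0.13 in both comparisons, beside 0.06 and 0.05 for all genes tested. The largest called increases were CDCA3 without LPS (0.45, or 1.37-fold) and AURKB with LPS (0.57, or 1.48-fold). Where a gene has 2 log2 fold changes with no further name, the one with LPS comes first. The count depended on the scaling of the libraries. With all libraries set to the same median, 11 genes were higher and 3 lower without LPS, and 13 higher and 2 lower with LPS. Of all genes, 25.4% were then called without LPS and 28.3% with LPS. Under that scaling the log2 fold change was above 0 for 22 of the 38 in each comparison. As deposited it was above 0 for 26 without LPS (68.4%, against 58.3% of all genes) and 31 with LPS (81.6%, against 57.3%). That scaling also took the higher share of all called genes to 50.7% without LPS, beside 62.1% as deposited, and to 48.1% with LPS, beside 60.4%.

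Among the 10 genes of the CDK1 switch and its activators, 3 were higher in PINT shRNA1 than in Control cells, CDK1, CCNB1 and CDCA3, and 1 was lower, CDC25B. The same 3 were higher in PINT shRNA1+LPS than in LPS cells, with none called lower there. The share called was thus 40% without LPS and 30% with LPS, against 27.3% and 29.2% of all genes tested. The median log2 fold change of the 10 was -0.06 without LPS and 0.002 with LPS, beside 0.06 and 0.05 for all genes. With LPS the called share of this group was therefore near that of all genes. CDK1, the mitotic kinase itself, had 77.5, 80.7 and 79.4 FPKM in PINT shRNA1 libraries, against 67.2, 68.2 and 70.0 FPKM in Control libraries. It had 76.2, 74.9 and 78.4 FPKM in PINT shRNA1+LPS libraries, against 67.7, 70.5 and 69.3 FPKM in LPS libraries. All hairpin values lay above all values of their counterparts, with log2 fold changes of 0.21 ± 0.0343 (adjusted p = 0.00130) without LPS and 0.14 ± 0.0343 (adjusted p = 0.00931) with LPS. Scaling the libraries to the same median ended the second of these calls. CCNB1, the main cyclin partner of CDK1, had 92.9, 92.7 and 107 FPKM in PINT shRNA1 libraries, against 85.2, 87.2 and 78.6 FPKM in Control libraries, a log2 fold change of 0.22 ± 0.0628 (adjusted p = 0.0264). With LPS it had 92.7, 91.9 and 93.0 FPKM in PINT shRNA1+LPS libraries, against 75.2, 82.9 and 83.2 FPKM in LPS libraries, a log2 fold change of 0.20 ± 0.0628 (adjusted p = 0.0330). Both CCNB1 calls ended with the libraries set to the same median (adjusted p = 0.0540 without LPS and 0.0848 with LPS). CDCA3, which triggers the destruction of the CDK1 inhibitor WEE1, showed the largest increase of the 38 without LPS. It had 29.5, 27.8 and 27.6 FPKM in PINT shRNA1 libraries, against 21.9, 21.1 and 18.9 FPKM in Control libraries, and its log2 fold change was 0.45 ± 0.0631 (adjusted p = 0.000487). With LPS it had 27.6, 27.1 and 26.8 FPKM in PINT shRNA1+LPS libraries, against 20.3, 18.6 and 21.1 FPKM in LPS libraries, a change of 0.43 ± 0.0631 (adjusted p = 0.000549). Neither comparison showed any overlap for CDCA3.

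None of the other cyclins and kinases of this group was called higher. CCNB2, the second B-type cyclin, averaged 50.2 ± 2.46 FPKM in PINT shRNA1+LPS libraries and 54.0 ± 0.383 FPKM in LPS libraries (SD, n = 3 each), a log2 fold change of -0.10 ± 0.0408. Without LPS it averaged 53.4 ± 0.884 FPKM in PINT shRNA1 libraries and 54.3 ± 1.29 FPKM in Control libraries, a change of -0.02 ± 0.0408. CCNA2, the S and G2 cyclin, averaged 53.0 ± 0.752 FPKM in PINT shRNA1 libraries and 56.4 ± 1.18 FPKM in Control libraries, a difference of -0.09 ± 0.0373 that was not called. With the libraries set to the same median both were called lower in 1 comparison each, CCNA2 without LPS (adjusted p = 0.0258) and CCNB2 with LPS (adjusted p = 0.0172). PLK1, the kinase that activates CDC25 and builds the mitotic spindle, averaged 27.8 ± 0.236 FPKM in PINT shRNA1+LPS libraries and 27.1 ± 2.54 FPKM in LPS libraries. Without LPS it averaged 26.4 ± 1.94 FPKM in PINT shRNA1 libraries and 26.2 ± 2.12 FPKM in Control libraries, and neither difference was called. CDC25B, the phosphatase that first switches CDK1 on, had 66.7, 66.7 and 74.3 FPKM in PINT shRNA1 libraries, against 76.9, 79.3 and 75.7 FPKM in Control libraries. The highest PINT shRNA1 value lay just under the lowest Control value, and the log2 fold change was -0.16 ± 0.0534 (adjusted p = 0.0480), a call that held in 7 of 23 alternative settings. CDC25C averaged 12.5 ± 0.824 FPKM in PINT shRNA1 libraries and 14.1 ± 0.608 FPKM in Control libraries, and its difference of -0.16 ± 0.0906 was not called.

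All 6 genes of the spindle checkpoint and the onset of anaphase were called higher in PINT shRNA1 than in Control cells, where 16.9% of all genes were. In PINT shRNA1+LPS against LPS cells 4 of the 6 were called higher, where 17.7% of all genes were. With the libraries set to the same median these counts were 3 and 2, the calls of BUB1B, PTTG1 and TTK ending without LPS and those of BUB1 and TTK with LPS. BUB1, a checkpoint kinase at the kinetochore, had 69.2, 71.1 and 69.1 FPKM in PINT shRNA1 libraries, against 55.5, 60.9 and 57.5 FPKM in Control libraries. Its log2 fold change was 0.27 ± 0.0471 (adjusted p = 0.001999) there and 0.15 ± 0.0471 (adjusted p = 0.0378) with LPS. CDC20, the activator of the anaphase-promoting complex that the checkpoint holds back, had 68.9, 71.1 and 72.7 FPKM in PINT shRNA1+LPS libraries, against 58.4, 57.7 and 60.7 FPKM in LPS libraries. It had 65.9, 65.6 and 73.0 FPKM in PINT shRNA1 libraries, against 60.7, 61.0 and 57.1 FPKM in Control libraries. No value overlapped in either comparison, and the log2 fold changes were 0.26 ± 0.0490 (adjusted p = 0.00232) with LPS and 0.19 ± 0.0490 (adjusted p = 0.0149) without. BUB1B, the checkpoint protein BUBR1, changed by 0.26 ± 0.0530 with LPS and 0.17 ± 0.0530 without, and TTK, the MPS1 kinase, by 0.16 ± 0.0445 and 0.14 ± 0.0445. UBE2C and PTTG1 were called without LPS only, at 0.27 ± 0.0640 and 0.12 ± 0.0336. With LPS the 2 genes stood at 0.05 ± 0.0640 and 0.04 ± 0.0336, and the difference between the 2 comparisons, the interaction, was not called for UBE2C (adjusted p = 0.595) or PTTG1 (adjusted p = 0.749).

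The chromosomal passenger complex corrects faulty attachments and steers cytokinesis, and its kinase AURKB changed most of the 38 genes in PINT shRNA1+LPS relative to LPS cells among those called. AURKB had 70.7, 68.1 and 70.0 FPKM in PINT shRNA1+LPS libraries, against 45.7, 44.1 and 51.0 FPKM in LPS libraries, a log2 fold change of 0.57 ± 0.0693 (adjusted p = 0.000180). It had 63.3, 74.8 and 72.1 FPKM in PINT shRNA1 libraries, against 55.1, 59.9 and 55.6 FPKM in Control libraries, a change of 0.30 ± 0.0693 (adjusted p = 0.00951). The hairpin values were close to each other with and without LPS, and the LPS values were below the Control values. CDCA8, the complex's subunit borealin, had 27.9, 28.1 and 29.5 FPKM in PINT shRNA1+LPS libraries, against 22.5, 22.9 and 24.2 FPKM in LPS libraries, a change of 0.29 ± 0.0467 (adjusted p = 0.00102). Without LPS it had 27.4, 28.6 and 29.98 FPKM in PINT shRNA1 libraries, against 24.5, 24.6 and 24.4 FPKM in Control libraries, a change of 0.22 ± 0.0467 (adjusted p = 0.00529). BIRC5, the subunit survivin, had 16.8, 15.1 and 23.3 FPKM in PINT shRNA1+LPS libraries, against 12.9, 14.1 and 11.9 FPKM in LPS libraries. Its log2 fold change was 0.47 ± 0.151 (adjusted p = 0.0389), but it was not called with the libraries set to the same median, was 0.29 and not called without PINT shRNA1+LPS replicate 3, and the call held in 11 of 23 alternative settings. Without LPS it stood at -0.02 ± 0.151. INCENP, the scaffold of the complex and not one of the 38, averaged 43.6 ± 2.63 FPKM in PINT shRNA1+LPS libraries and 32.8 ± 1.29 FPKM in LPS libraries, a change of 0.41 ± 0.0536 (adjusted p = 0.000294).

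Of the 5 centromere and kinetochore genes, 2 were higher without LPS, CENPA and NDC80, and 3 with LPS, CENPE being the third. Of all genes tested, 16.9% were higher without LPS and 17.7% with LPS. The call of CENPA without LPS ended with the libraries set to the same median. NDC80, the microtubule-binding arm of the outer kinetochore, had 48.2, 48.1 and 49.0 FPKM in PINT shRNA1+LPS libraries, against 36.3, 39.9 and 39.8 FPKM in LPS libraries. It had 51.2, 53.5 and 49.3 FPKM in PINT shRNA1 libraries, against 43.0, 44.7 and 42.7 FPKM in Control libraries. The groups did not overlap, and the log2 fold changes were 0.32 ± 0.0470 (adjusted p = 0.000555) and 0.24 ± 0.0470 (adjusted p = 0.00398). Its partner in the same complex, NUF2, averaged 15.8 ± 0.927 FPKM in PINT shRNA1+LPS libraries and 14.6 ± 0.769 FPKM in LPS libraries. Without LPS it averaged 17.6 ± 0.764 FPKM in PINT shRNA1 libraries and 16.003 ± 0.934 FPKM in Control libraries, and neither difference was called. CENPA had 13.1, 14.4 and 14.4 FPKM in PINT shRNA1+LPS libraries, against 10.0, 11.1 and 10.5 FPKM in LPS libraries, a change of 0.39 ± 0.0729 (adjusted p = 0.00239), and stood at 0.23 ± 0.0729 (adjusted p = 0.0395) without LPS. CENPE, the motor that moves chromosomes to the spindle equator, had 16.6, 16.3 and 17.7 FPKM in PINT shRNA1+LPS libraries, against 14.3, 12.6 and 14.1 FPKM in LPS libraries. Its change was 0.30 ± 0.0624 (adjusted p = 0.00478) with LPS and 0.17 ± 0.0624 (adjusted p = 0.0733) without, the second not called. CENPF, a large kinetochore protein, stood at 0.01 ± 0.0424 and -0.05 ± 0.0424 and was called in neither.

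Of the 5 spindle motors, KIF4A and KIF2C were called higher in both hairpin comparisons and KIF11, KIF20A and KIF23 in neither. That is 40% of the 5 in each, against 16.9% of all genes higher without LPS and 17.7% with LPS. The call of KIF2C without LPS ended with the libraries set to the same median. KIF4A, a chromosome-bound motor that limits the length of the spindle midzone, had 33.8, 34.1 and 35.0 FPKM in PINT shRNA1+LPS libraries, against 29.3, 29.3 and 29.99 FPKM in LPS libraries. It had 35.8, 33.2 and 34.8 FPKM in PINT shRNA1 libraries, against 30.8, 30.3 and 30.6 FPKM in Control libraries. There was no overlap, and the changes were 0.21 ± 0.0385 (adjusted p = 0.00203) and 0.17 ± 0.0385 (adjusted p = 0.00699). KIF2C, a microtubule depolymerase at centromeres, changed by 0.25 ± 0.0452 (adjusted p = 0.00192) with LPS and by 0.14 ± 0.0452 (adjusted p = 0.0361) without. KIF11, the motor that pushes spindle poles apart, averaged 31.8 ± 0.713 FPKM in PINT shRNA1+LPS libraries and 30.9 ± 0.716 FPKM in LPS libraries. Without LPS it averaged 33.5 ± 0.796 FPKM in PINT shRNA1 libraries and 34.4 ± 0.472 FPKM in Control libraries. KIF20A and KIF23, both motors of cytokinesis, lay between 0.02 and 0.05 on the log2 scale in the 2 comparisons.

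Among the 7 other spindle and cytokinesis genes, PRC1, TPX2 and HMMR were called higher and ASPM lower in both hairpin comparisons. In each 57.1% of the 7 were called, against 27.3% of all genes without LPS and 29.2% with LPS. With the libraries set to the same median, the calls of TPX2 in both comparisons and of HMMR without LPS ended. PRC1, the bundler of midzone microtubules that works with KIF4A, had 35.3, 34.9 and 33.3 FPKM in PINT shRNA1+LPS libraries, against 28.3, 26.7 and 28.6 FPKM in LPS libraries, a change of 0.30 ± 0.0613 (adjusted p = 0.00394). Without LPS it had 36.7, 33.9 and 35.5 FPKM in PINT shRNA1 libraries, against 28.9, 33.2 and 28.5 FPKM in Control libraries, a change of 0.23 ± 0.0613 (adjusted p = 0.0181). HMMR, a spindle-associated protein, had 41.7, 42.4 and 44.7 FPKM in PINT shRNA1+LPS libraries, against 33.1, 38.8 and 36.1 FPKM in LPS libraries. Without LPS it had 51.5, 49.3 and 50.7 FPKM in PINT shRNA1 libraries, against 41.4, 47.3 and 42.1 FPKM in Control libraries. HMMR thus had its highest level in PINT shRNA1 and its lowest in LPS libraries, with changes of 0.25 ± 0.0653 and 0.21 ± 0.0653. TPX2, which brings AURKA to the spindle, changed by 0.14 ± 0.0343 and 0.11 ± 0.0343. ASPM, a spindle pole protein known for its role in microcephaly, went the other way, with 25.7, 25.0 and 24.9 FPKM in PINT shRNA1 libraries, against 28.0, 30.6 and 31.3 FPKM in Control libraries. Its values were 23.7, 23.1 and 23.9 FPKM in PINT shRNA1+LPS libraries, against 25.5, 28.4 and 27.2 FPKM in LPS libraries, and the changes were -0.24 ± 0.0533 (adjusted p = 0.00685) without LPS and -0.19 ± 0.0533 (adjusted p = 0.0191) with LPS. NUSAP1, DLGAP5 and ECT2 were not called in either comparison.

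Of TOP2A and MKI67, both proteins of mitotic chromosomes, TOP2A was called higher in both hairpin comparisons and MKI67 in neither. TOP2A had 174, 177 and 178 FPKM in PINT shRNA1+LPS libraries, against 146, 152 and 155 FPKM in LPS libraries. It had 187, 189 and 181 FPKM in PINT shRNA1 libraries, against 160.4, 159 and 164 FPKM in Control libraries. No value overlapped, and the changes were 0.23 ± 0.0324 (adjusted p = 0.000513) and 0.20 ± 0.0324 (adjusted p = 0.00101). MKI67, the source of the Ki-67 antigen used to count proliferating cells, averaged 75.3 ± 1.28 FPKM in PINT shRNA1+LPS libraries and 72.1 ± 2.83 FPKM in LPS libraries (SD, n = 3 each). Without LPS it averaged 75.4 ± 0.991 FPKM in PINT shRNA1 libraries and 73.7 ± 0.958 FPKM in Control libraries. Its log2 fold changes were 0.06 ± 0.0358 (adjusted p = 0.219) and 0.03 ± 0.0358 (adjusted p = 0.545).

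**Figure D2:**
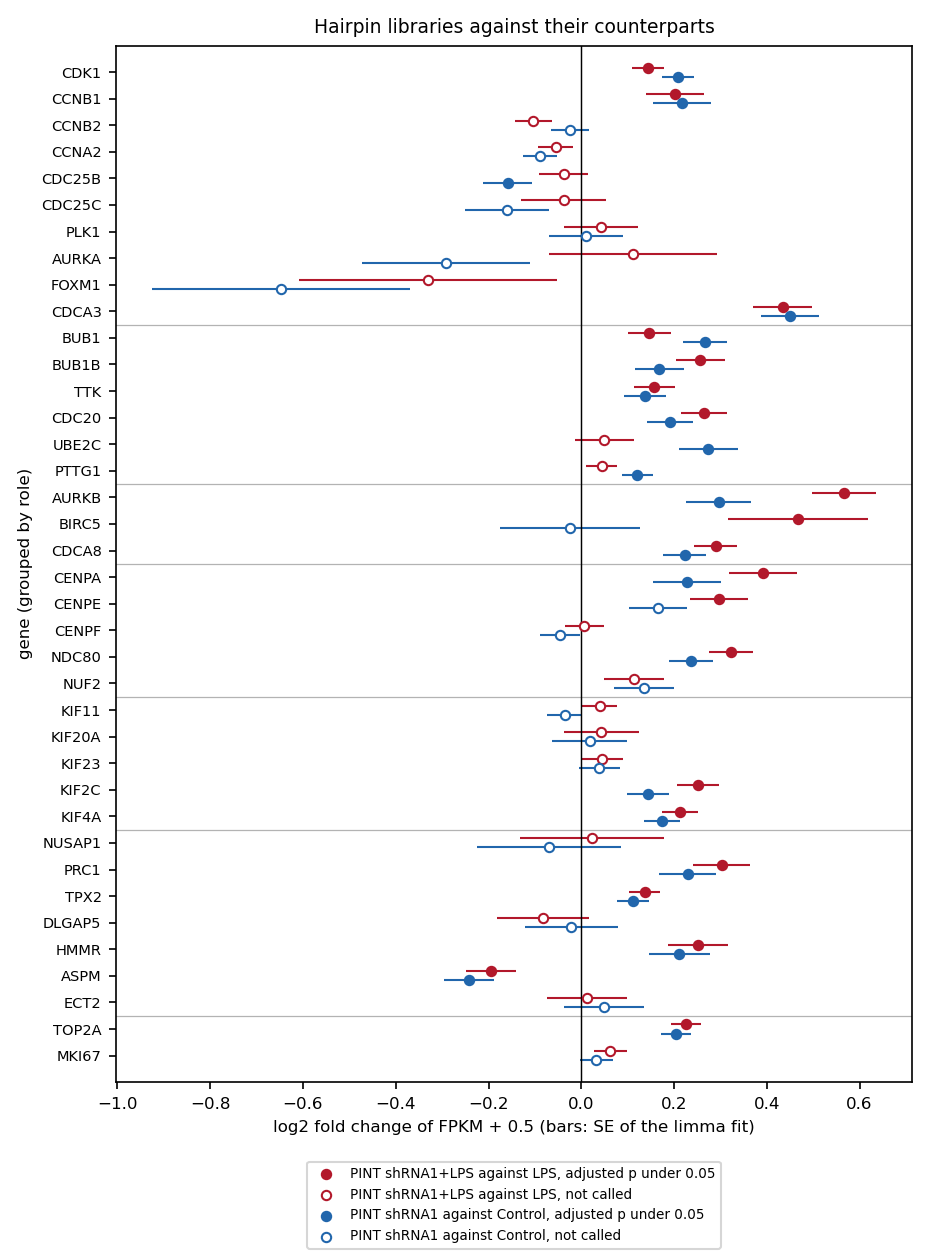
Log2 fold change of FPKM + 0.5 (horizontal axis) of each of the 38 genes (vertical axis, grouped by role) in PINT shRNA1+LPS against LPS (red) and PINT shRNA1 against Control (blue), with bars for the SE of the limma fit. Filled points have an adjusted p under 0.05: 20 red and 21 blue, of which ASPM (both) and CDC25B (blue) lie left of 0.

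The 2 hairpin comparisons share no library, but they share the hairpin, the wild-type line and 1 estimate of each gene's spread. They are therefore not independent. They had 18 called genes in common in the same direction, 17 higher and ASPM lower, which is 85.7% of the 21 called without LPS and 90% of the 20 called with LPS. Over all genes tested the same shares were 70.9% of 4693 and 66.1% of 5033. A further 5 of the 38 were called in 1 of the 2 comparisons, and 15 in neither. Leaving out single libraries moved the count without LPS to 13 (without Control replicate 1), 11 (without Control replicate 3) and 12 (without PINT shRNA1 replicate 1), and the count with LPS ran from 15 to 20. In all 23 alternative settings, 10 genes stayed called without LPS (ASPM, AURKB, BUB1, CDCA3, CDCA8, CDK1, KIF4A, NDC80, TOP2A and UBE2C) and 12 with LPS (AURKB, BUB1B, CDC20, CDCA3, CDCA8, CENPA, CENPE, KIF2C, KIF4A, NDC80, PRC1 and TOP2A). The calls that held least often were TTK and CDC25B without LPS, in 7 of 23 settings each, CENPA and KIF2C without LPS, in 10 each, and BUB1B without and BIRC5 with LPS, in 11 each. The other calls held in 12 to 22 of the 23 settings.

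**Figure D3:**
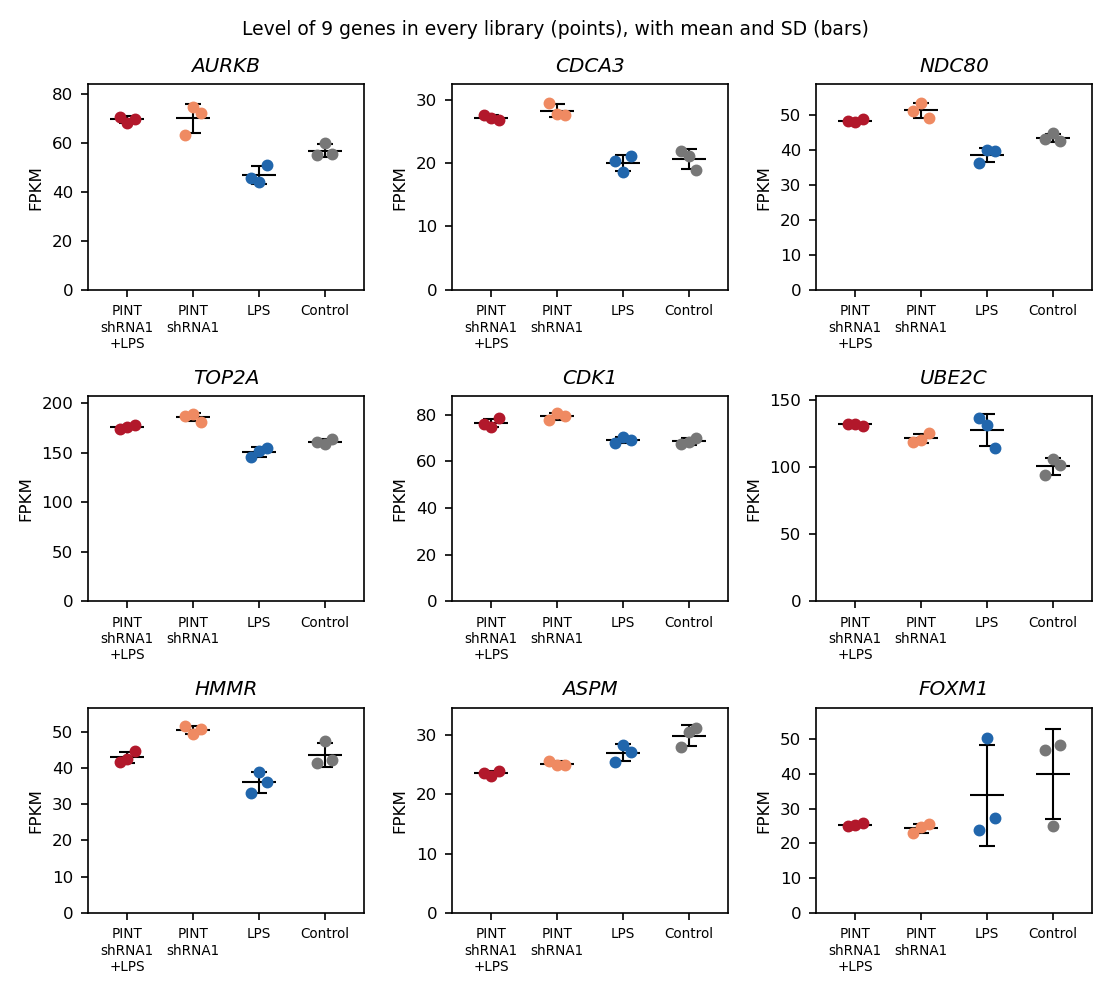
Level in FPKM (vertical axis, from 0) of 9 genes in every library (points), with the mean and SD of each group (bars, n = 3), groups from left to right PINT shRNA1+LPS, PINT shRNA1, LPS and Control. NDC80 and TOP2A lie higher in the hairpin groups, ASPM lower, UBE2C is lowest in Control, and FOXM1 has 2 levels within the LPS and Control groups.

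Most of the promoters examined carry the elements through which late cell cycle genes are known to be switched. RefSeq promoter windows (GRCh38.p14, 250 bases before to 50 after the annotated start) were matched by symbol to 32 of the 38 genes, in 42 windows. AURKA, BIRC5, FOXM1, TPX2, TTK and UBE2C were not matched. The following stretches of 120 bases before the start, 5′ to 3′ on the gene's strand, are shown because they come from genes higher in both hairpin comparisons (CDC20, CDCA8, PRC1 and KIF4A), called in neither (CCNB2 and PLK1) and lower in both (ASPM). Capitals mark a CHR (TTTGAA or TTCGAA, either strand) or a CCAAT box (CCAAT, either strand), and in CDCA8 the last base of the CHR is also the first of a CCAAT box.
CDC20, chr1:43358861-43358980, plus strand: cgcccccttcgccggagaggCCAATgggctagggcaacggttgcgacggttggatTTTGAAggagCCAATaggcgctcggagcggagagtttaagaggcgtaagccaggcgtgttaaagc
CDCA8, chr1:37692396-37692515, plus strand: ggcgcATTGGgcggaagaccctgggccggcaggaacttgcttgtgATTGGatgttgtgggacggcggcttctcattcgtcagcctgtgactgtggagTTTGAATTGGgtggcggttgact
PRC1, chr15:90994536-90994655, minus strand: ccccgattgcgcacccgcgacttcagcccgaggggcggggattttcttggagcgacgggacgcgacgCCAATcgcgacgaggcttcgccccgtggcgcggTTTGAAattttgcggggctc
KIF4A, chrX:70289984-70290103, plus strand: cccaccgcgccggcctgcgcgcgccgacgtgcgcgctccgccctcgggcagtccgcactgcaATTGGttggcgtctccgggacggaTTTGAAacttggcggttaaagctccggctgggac
CCNB2, chr15:59105026-59105145, plus strand: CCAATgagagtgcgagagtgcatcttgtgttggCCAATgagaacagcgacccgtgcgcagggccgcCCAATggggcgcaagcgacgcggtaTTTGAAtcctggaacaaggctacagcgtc
PLK1, chr16:23678769-23678888, plus strand: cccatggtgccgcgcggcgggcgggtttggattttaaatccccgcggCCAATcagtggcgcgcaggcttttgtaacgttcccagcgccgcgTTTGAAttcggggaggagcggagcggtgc
ASPM, chr1:197146670-197146789, minus strand: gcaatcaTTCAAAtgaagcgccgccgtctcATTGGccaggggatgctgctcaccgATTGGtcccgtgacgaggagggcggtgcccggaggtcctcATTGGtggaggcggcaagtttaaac

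The 7 were chosen from genes whose stretch holds both elements, so finding both in each says nothing of the calls. Of the 15 matched genes higher in both comparisons, 10 had both elements in 1 window. AURKB, CCNB1 and KIF2C had no match to TTTGAA or TTCGAA, and BUB1B, KIF2C and NDC80 had no CCAAT box. No other sequence was searched as a CHR. Of the 13 matched genes called in neither, 10 had both in 1 window. A CHR was found in 28 of the 42 windows (66.7%), against 16.4% of 35116 windows of all genes, and in 25 of 32 genes, against 19.5% of 27305. A CCAAT box was found in 32 of 42 windows (76.2%, against 34.6%), at least 2 of them in 19 windows (45.2%, against 10.8%), and both elements in 24 (57.1%, against 6.38%). An E2F site (TTTCCCGC, TTTGGCGC, TTTCGCGC or TTTGCCGC, either strand) was found in 4 of 42 windows (9.52%, against 3.31%). Of the 25 genes with a CHR, 12 were higher and 2 lower without LPS, and 12 higher and 1 lower with LPS. Of the 7 without a CHR match, 4 were higher in each comparison and none was lower. A match is a run of letters, and whether any factor bound there was not measured.

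**Figure D4:**
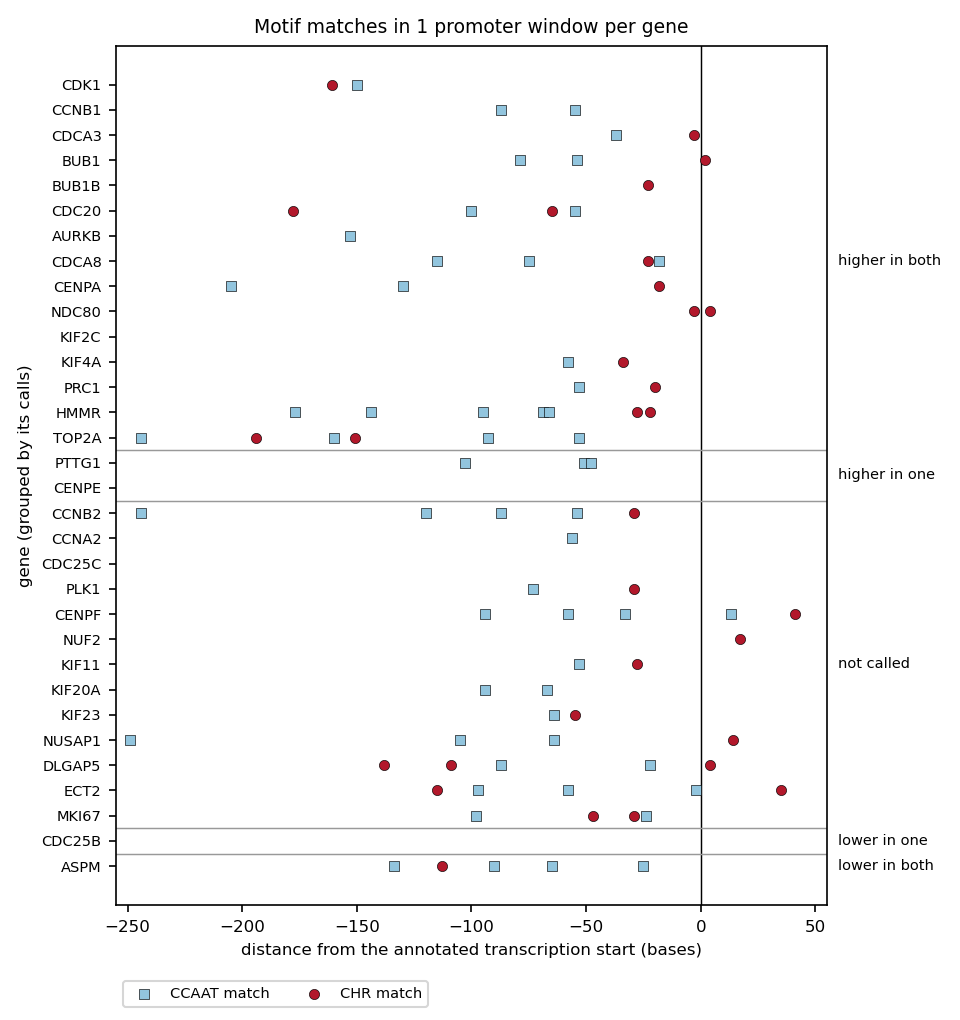
Distance of each CHR match (circles) and CCAAT match (squares) from the annotated transcription start, in bases (horizontal axis), in the first listed promoter window of each of 32 genes (rows, grouped by their calls in the hairpin comparisons). A CHR lies in 23 of these 32 windows, and in 13 of them a CHR begins in the last 60 bases before the start. Those of CDCA3 and NDC80 begin at -3 and run past the start.

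Other genes of the same processes were followed in 6 further lists of 121 genes. Of the 121, 38 were higher and 3 lower in PINT shRNA1 than in Control cells, with a median log2 fold change of 0.11. Of all genes tested there, 16.9% were higher and 10.3% lower, with a median of 0.06. In PINT shRNA1+LPS against LPS cells 34 of the 121 were higher and 13 lower, with a median of 0.05. Of all genes, 17.7% were higher and 11.6% lower there, also with a median of 0.05. The log2 fold change with LPS was above 0 for 60.3% of the 121 and 57.3% of all genes. The anaphase-promoting complex and checkpoint genes had 11 of 20 higher and none lower without LPS, and 9 higher and 1 lower with LPS. MAD2L1, the checkpoint protein MAD2, averaged 26.3 ± 0.909 FPKM in PINT shRNA1 libraries and 20.5 ± 0.531 FPKM in Control libraries, a change of 0.35 ± 0.0412 (adjusted p = 0.000158). ESPL1, the protease separase, averaged 19.2 ± 0.594 FPKM in PINT shRNA1+LPS libraries and 13.1 ± 0.725 FPKM in LPS libraries, a change of 0.54 ± 0.0706 (adjusted p = 0.000279). ANAPC2, a catalytic subunit of the complex, changed by 0.45 ± 0.0646 and 0.46 ± 0.0646, and MAD1L1, the partner of MAD2, by 0.65 ± 0.101 with LPS. Of 24 other spindle and cytokinesis genes, 11 were higher and none lower without LPS, and 13 were higher and 1 lower with LPS. They included FAM83D, which brings a chromosome motor to the spindle, at 0.41 ± 0.0381 and 0.39 ± 0.0381, the motor KIF14 at 0.41 ± 0.0540 and 0.35 ± 0.0540, and the spindle protein SPAG5 at 0.51 ± 0.0637 with LPS.

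The other mitotic lists also had calls on both sides of 0 in at least 1 comparison. Without and with LPS, 24.2% and 33.3% of other centromere and kinetochore genes were called, and 16.7% and 27.8% of condensin and cohesin genes. For other mitotic entry regulators these shares were 35.7% and 14.3%, and for DREAM and MuvB subunits 25% and 41.7%. Of all genes tested, 27.3% and 29.2% were called. Of 33 other centromere and kinetochore genes, 7 were higher and 1 lower without LPS, and 6 higher and 5 lower with LPS. They included CENPT, a link between centromere and outer kinetochore, at 0.44 ± 0.0716 and 0.46 ± 0.0716. Of 18 condensin and cohesin genes, 2 were higher and 1 lower without LPS, and 2 higher and 3 lower with LPS, the condensin II subunits NCAPD3 (0.32 and 0.29) and NCAPG2 (-0.40 and -0.37) moving in opposite directions. Of 14 other mitotic entry regulators, 4 were higher and 1 lower without LPS, and 1 was higher and 1 lower with LPS. CCNF, a cyclin-like ubiquitin ligase subunit, changed by 0.29 ± 0.0543 and 0.28 ± 0.0543. Of 12 subunits of DREAM and MuvB complexes, 3 were higher in each comparison, MYBL2, TFDP1 and E2F4, with none lower without LPS and 2 lower with LPS. MYBL2, the MuvB partner that switches mitotic genes on, had 54.1, 54.9 and 52.4 FPKM in PINT shRNA1+LPS libraries, against 37.0, 36.5 and 36.0 FPKM in LPS libraries, a change of 0.55 ± 0.0399 (adjusted p = 4.33e-06). It had 52.2, 49.3 and 52.2 FPKM in PINT shRNA1 libraries, against 36.0, 37.2 and 35.0 FPKM in Control libraries, a change of 0.50 ± 0.0399 (adjusted p = 1.10e-05). The other activator, FOXM1, is one of the 38 and was not called in either comparison.

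On the list of the preceding cell cycle steps, more genes were called lower than higher. Of 28 genes of G1/S and DNA replication, 1 was higher and 8 lower in PINT shRNA1 than in Control cells, and 2 were higher and 7 lower in PINT shRNA1+LPS than in LPS cells. In each comparison 32.1% of the list was called, against 27.3% of all genes without LPS and 29.2% with LPS. By direction, 16.9% of all genes were higher and 10.3% lower without LPS, and 17.7% higher and 11.6% lower with LPS. Median log2 fold changes of the 28 genes were -0.07 without LPS and -0.02 with LPS, beside 0.06 and 0.05 for all genes. The summed level of the 28 genes was 1209.9 to 1239.6 FPKM in PINT shRNA1+LPS and 1212 to 1279 FPKM in PINT shRNA1 libraries. It was 1303 to 1318 FPKM in LPS and 1329.6 to 1344 FPKM in Control libraries. GINS3, a subunit of the replicative helicase, averaged 6.54 ± 0.314 FPKM in PINT shRNA1+LPS libraries and 9.84 ± 0.313 FPKM in LPS libraries. Without LPS it averaged 6.53 ± 0.0933 FPKM in PINT shRNA1 libraries and 10.1 ± 0.489 FPKM in Control libraries, and the changes were -0.56 ± 0.0572 (adjusted p = 5.71e-05) and -0.59 ± 0.0572 (adjusted p = 4.41e-05). CDT1, which licenses origins, changed by -0.68 ± 0.102 (adjusted p = 0.000726) without LPS. CDC6, also a licensing factor, fell by 0.30 on the log2 scale without LPS, and PCNA, the sliding clamp, fell by 0.20 with LPS.

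**Figure D5:**
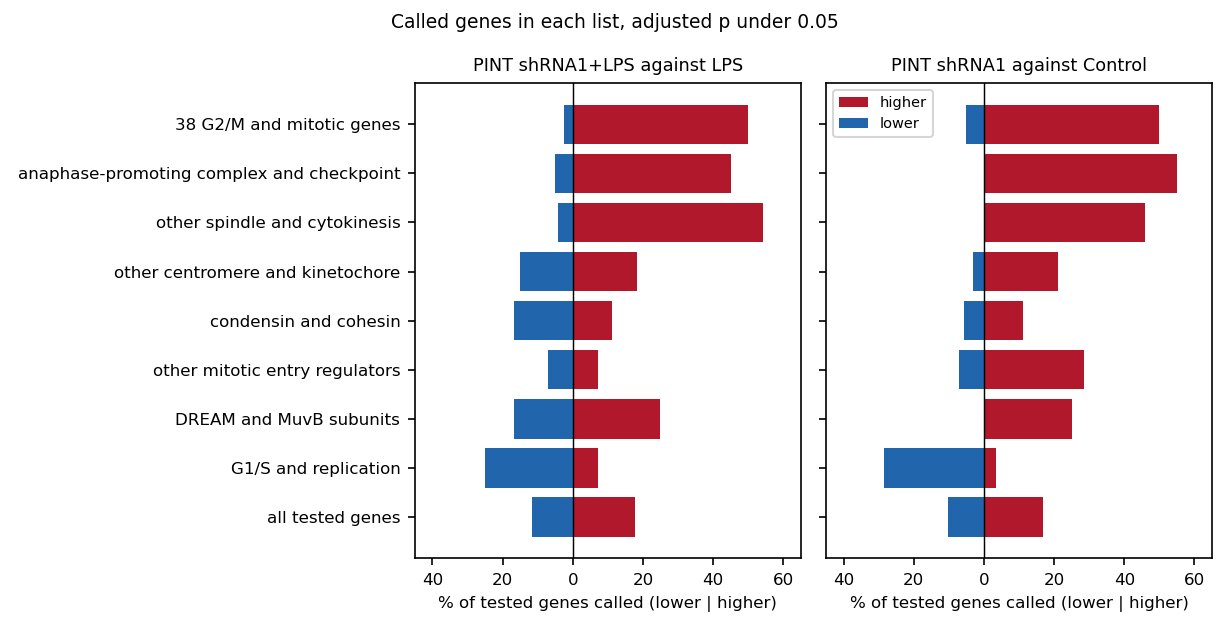
Share of each list's tested genes called higher (red, right of 0) and lower (blue, left of 0), in percent (horizontal axis), in PINT shRNA1+LPS against LPS (left panel) and PINT shRNA1 against Control (right panel), with all 17214 tested genes in the bottom bar. The 38 genes had 50% called higher in both panels, and the G1/S and replication list is the one whose blue bar exceeds its red bar in both.

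LPS alone left nearly all of the 38 genes without a call. UBE2C was the only one called in LPS against Control libraries, as higher, where 2.76% of all genes were called in either direction. It had 137, 132 and 115 FPKM in LPS libraries, against 94.0, 106 and 102 FPKM in Control libraries. All LPS values were above all Control values, and the log2 fold change was 0.34 ± 0.0640 (adjusted p = 0.0178). The call did not hold without Control replicate 1, LPS replicate 1 or LPS replicate 2, or when only the 2 groups were fitted (highest adjusted p = 0.169). None of the 38 was called lower, while 13 had an unadjusted p under 0.05 in either direction, as did 2896 of all 17214 genes tested. The groups did not overlap for 2 genes that were higher, where 7.22% of all genes did the same, and for 14 that were lower, where 11.9% of all genes did. The log2 fold change was below 0 for 34 of the 38 (89.5%, against 59.3% of all genes), with a median of -0.09 beside -0.04 for all genes. With the libraries set to the same median, it was below 0 for 23 of the 38, with a median of -0.04 beside 0.01 for all genes.

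The lowest log2 fold changes in LPS against Control libraries were those of AURKB, BIRC5, HMMR, FOXM1 and CENPE. AURKB had 45.7, 44.1 and 51.0 FPKM in LPS libraries, against 55.1, 59.9 and 55.6 FPKM in Control libraries, a change of -0.28 ± 0.0693 (adjusted p = 0.0665). The groups did not overlap for AURKB, and it was called lower without LPS replicate 3 (adjusted p = 0.0428) and without PINT shRNA1 replicate 1 (adjusted p = 0.0385). HMMR had 33.1, 38.8 and 36.1 FPKM in LPS libraries, against 41.4, 47.3 and 42.1 FPKM in Control libraries, a change of -0.27 ± 0.0653 (adjusted p = 0.0556), and was called lower after quantile normalization (adjusted p = 0.0352), with a filter of 1 FPKM (adjusted p = 0.04996) and without LPS replicate 2 (adjusted p = 0.0375). CENPE had 14.3, 12.6 and 14.1 FPKM in LPS libraries, against 15.8, 17.5 and 15.8 FPKM in Control libraries, a change of -0.26 ± 0.0624 (adjusted p = 0.0596). KIF11 averaged 30.9 ± 0.716 FPKM in LPS libraries and 34.4 ± 0.472 FPKM in Control libraries, a change of -0.15 ± 0.0377 (adjusted p = 0.0685), and NDC80 38.6 ± 2.05 FPKM in LPS libraries and 43.5 ± 1.10 FPKM in Control libraries, a change of -0.17 ± 0.0470 (adjusted p = 0.0928). CDK1, DLGAP5 and CCNB2 stood nearest to 0, at 0.01, -0.0023 and -0.0076. Among the 121 other mitotic genes, 1 was called higher, TRIP13 (0.27), a checkpoint ATPase, and 2 lower, ANAPC11 (-0.52), a catalytic subunit of the anaphase-promoting complex, and the motor KIF18A (-0.35). That is 2.48% of the 121, against 2.76% of all genes called.

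In the hairpin cells, LPS gave no call among the 38 genes. In PINT shRNA1+LPS against PINT shRNA1 libraries 0 of 38 were called in limma, where 0.186% of all genes were called. Of the 38, 5 had an unadjusted p under 0.05, as did 1508 of all 17214 genes tested. The groups did not overlap for 1 gene that was higher, where 6.08% of all genes did the same, and for 13 that were lower, where 13.2% of all genes did. The median log2 fold change was -0.03, beside -0.04 for all genes, and 0.02 with the libraries set to the same median. HMMR had 41.7, 42.4 and 44.7 FPKM in PINT shRNA1+LPS libraries, against 51.5, 49.3 and 50.7 FPKM in PINT shRNA1 libraries, a change of -0.23 ± 0.0653 (adjusted p = 0.312). BUB1 had 64.8, 63.6 and 60.9 FPKM in PINT shRNA1+LPS libraries, against 69.2, 71.1 and 69.1 FPKM in PINT shRNA1 libraries, a change of -0.14 ± 0.0471 (adjusted p = 0.407). Both were lower without overlap and neither was called. UBE2C had 132, 133 and 131 FPKM in PINT shRNA1+LPS libraries, against 119, 121 and 125 FPKM in PINT shRNA1 libraries, a change of 0.12 ± 0.0640 (adjusted p = 0.641).

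The interaction, the LPS response in hairpin cells minus that in wild-type cells, was called for 0 of the 38 genes in limma, where 0.128% of all genes were called. An unadjusted p under 0.05 was found for 3 of the 38, and for 1333 of all 17214 genes tested. UBE2C stood at -0.22 ± 0.0905 (adjusted p = 0.595), AURKB at 0.27 ± 0.0980 (adjusted p = 0.554) and BIRC5 at 0.49 ± 0.214 (adjusted p = 0.637). The median over the 38 was 0.04. No difference between the LPS responses with and without the hairpin was thus shown for any of these genes.

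Within at least 1 group, FOXM1, AURKA, NUSAP1 and BIRC5 had a highest library over 1.5 times the lowest, and no other member did. FOXM1, the transcription factor of late cell cycle genes, had 25.0, 25.1 and 25.9 FPKM in PINT shRNA1+LPS libraries, 22.8, 24.5 and 25.5 FPKM in PINT shRNA1 libraries, 23.9, 50.4 and 27.1 FPKM in LPS libraries and 46.8, 24.9 and 48.2 FPKM in Control libraries. All 6 hairpin libraries lay close to the low values of the other groups, while 1 LPS library and 2 Control libraries were far above them. Its log2 fold change in PINT shRNA1 against Control libraries was -0.65 ± 0.277 (adjusted p = 0.111), and it was called lower without Control replicate 2 (adjusted p = 0.0186) or without LPS replicate 2 (adjusted p = 0.0410). ITFG2 and RHNO1 overlap FOXM1 on the opposite strand. AURKA, the centrosome kinase, had 46.0, 74.2 and 48.0 FPKM in PINT shRNA1 libraries, against 71.7, 66.7 and 63.1 FPKM in Control libraries, and it was called lower without PINT shRNA1 replicate 2 (adjusted p = 0.0321). NUSAP1, a microtubule bundler, had 39.7, 41.3 and 38.6 FPKM in PINT shRNA1+LPS libraries, against 31.9, 54.4 and 34.8 FPKM in LPS libraries, and it was called higher without LPS replicate 2 (adjusted p = 0.0298). In GENCODE 29, 9 of the 38 genes overlap another gene with more than 1 FPKM, 7 of them on the opposite strand. They are CCNA2, CDC25C, FOXM1, CDCA3, CENPA, NUF2, KIF20A, KIF4A and TOP2A, and whether the counting used strand is not given in the sources used here, so reads of these genes may be shared with their neighbours. PTTG1 and KIF4A have near-identical copies, such as PTTG2 and KIF4B, and how reads were divided among copies is not given either.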

How the data were processed

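RNA of SW480 cells was sequenced, and FPKM values per gene were used as deposited by the authors. Per the submitters' processing notes, StringTie 1.3.4d, HISAT2 2.1.0 and fastp were used and the build was GRCh37/hg19, with no role given for each tool. The labels list 15 samples, since each of the 3 PINT shRNA1 RNA numbers has 2, and the table has 1 column for each number, used as 1 replicate. 6 columns were not used. Values were tested as log2(FPKM + 0.5) with limma 3.58.1 (R 4.3.3) in a model of the 4 group means over 12 libraries, with an intensity trend, two-sided, and Benjamini-Hochberg adjustment over all 17214 genes tested. Fold changes are on that scale, which understates changes of low genes. Absolute depth is unknown in FPKM, so no counting interval is given. Relative depth came from the commonest ratio of low values between libraries. The script was tested on simulated data.

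The members and gene lists were chosen with earlier results of these data known. Named beside the 38 are, for each other list and comparison, up to 3 called genes with the smallest p. One gene that this rule names is not reported here. Same-numbered libraries were checked for shared deviations, and none of 18 pairs had a correlation over 0.1. The alternatives were other scalings, pseudocounts, filters and moderation, weights, a replicate block, a fit of the groups compared and leaving out each library. Promoter windows are RefSeq's (GRCh38.p14), another build than the files', so no coordinates were carried between them. Gene overlaps are from GENCODE 29. Python 3.11.15 with pandas 2.3.3 read the sequences, and figures were drawn with matplotlib 3.10.9.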

Additional observations from a re-analysis of the deposited data

How the results depend on the processing

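Of the 38 genes, 1 was called in LPS against Control libraries. The count was 2 after quantile normalization, 2 with a filter of 1 FPKM and 0 when only the groups compared were fitted. With single libraries left out it ran from 0 to 2. Of all genes tested, 2.76% were called there, and in these 3 settings 2.48%, 3.39% and 0.738%. With single libraries left out the share of all genes ran from 1.68% to 2.40%. In PINT shRNA1 against Control libraries 21 were called, 12 with no intensity trend and 10 when only the groups compared were fitted, and 11 to 22 with single libraries left out. Of all genes tested, 27.3% were called there, 26.2% with no intensity trend and 21.2% when only the groups compared were fitted. That share was 20.8% to 27.8% with single libraries left out. The distance of the 38 genes from all genes thus depended on the setting. In PINT shRNA1+LPS against LPS libraries 20 were called, and 15 to 20 with single libraries left out. The other 2 comparisons stayed at 0 in every alternative run, and no member that was called changed sign in any. The replicate block gave 1, 18 and 19 called members in these 3 comparisons and 0 in the other 2. Of all genes, the block called 1.81%, 24.9% and 27.1% in these 3 comparisons. It rests on numbers that do not pair the libraries: same-numbered libraries had correlations of -0.0476 to 0.0569, and 4 of 12 libraries correlated best with their own number. Over all genes, LPS against Control gave 475 calls, 264 with library weights, 127 with only the groups compared and 311 with the replicate block. The cause of these shifts was not tested. Fitting only the groups compared leaves fewer libraries to estimate the spread, and the part of this was not tested either. FPKM hold no counts, so what depth limits cannot be given for a gene.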

Other observations

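The median SD of log2(FPKM + 0.5) within a group, over the 38 genes, was 0.0309 in PINT shRNA1+LPS, 0.0518 in PINT shRNA1, 0.0721 in LPS and 0.0562 in Control libraries. Over all genes tested it was 0.0868 in PINT shRNA1+LPS, 0.108 in PINT shRNA1, 0.128 in LPS and 0.128 in Control libraries. The 38 genes are also the more abundant, with a median of 41.9 FPKM against 5.59 FPKM. PINT shRNA1+LPS libraries had the lowest SD by both measures and were the deepest, and the part of depth in this was not tested.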
